A study of Mus musculus with 4 samples.

Results

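The genes described here are 33 genes of fatty acid oxidation and ketone body metabolism, chosen by name. They comprise the enzymes and carriers that burn fatty acids in mitochondria and peroxisomes, a ketone body dehydrogenase, and regulators and targets of the same programme. All 33 had a probe that RefSeq accessions tied to the symbol, and all 33 were kept among the 21649 genes and unnamed transcripts tested, with all 41 of their probes well above background on every array. They were measured in ileal total RNA of male C57BL/6J mice aged 10 weeks, in 2 samples from mice given metformin by mouth at 1000 mg/kg and in 2 control samples, each on its own single-colour Agilent array. How long treatment lasted, what vehicle was used and whether replicate samples are different mice is not in the labels, and the p-values therefore reflect sample spread that could in part be technical. The series is titled as a study of metformin in the ileum, and the comparison made here is that of the metformin samples with the controls.

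Fatty acids enter mitochondria as carnitine esters and are then shortened in repeated rounds of dehydrogenation, hydration, a further dehydrogenation and thiolysis, with electrons passed to the respiratory chain through the electron transfer flavoprotein. Peroxisomes run a parallel set of reactions on very long and branched chains. When acetyl-CoA is plentiful, mitochondria can turn it into ketone bodies. PPARalpha, a nuclear receptor that binds fatty acids, activates many of these genes. In the small intestine the programme is known to be more active in proximal than in distal enterocytes for several of its members.

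Every value below is a log2 signal relative to the 75th percentile of its array, from the brightest probe of the gene, and a difference is the metformin mean minus the control mean on that scale. Because probes differ in efficiency, values of 1 gene are not set against those of another. Metformin 1 stood apart from the other 3 samples in markers of gut region. The 8 markers of proximal small intestine were all highest in it, with summed signals of 1070 and 91.8 times the array percentile in metformin 1 and 2, and of 288 and 124 in control 1 and 2. The 6 ileal markers were all lowest in it, at 72.9 and 611 in metformin 1 and 2 and 633 and 431 in control 1 and 2, although all 6 were well above background on every array. The samples numbered 2 were the closest pair across all genes (r = 0.993 for metformin 2 with control 2), against 0.967 for the metformin samples and 0.973 for the controls. They were computed across genes, and genes do not count as independent replicates.

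No member passed the test. By limma with Benjamini-Hochberg adjustment over all genes, 0 of the 33 members were called (smallest adjusted p = 0.9996), and 0 had an unadjusted p under 0.05, while 0% and 1.6% of all genes passed these limits. The difference was above 0 for 26 members and below 0 for 7, with a median of 0.20, against a median of 0.06 over all genes, of which 57.9% lay above 0. The median over the members was 0.012 without control 2 and 0.09 without metformin 1, and 0.10 with quantile normalization. In 7 members both metformin samples lay above both controls, or 21.2%, where 12.5% of all genes did so. Quantile normalization left 2 such members, and the share of all genes at that setting was not computed. In 0 members did both lie below, against 8.46% of all genes, and 0 were at least 2-fold changed without overlap, against 0.633% of genes higher and 2.3% lower. The metformin samples differed more from each other than the controls did, with a median gap over the members of 0.55, against 0.25 between the controls. Over all genes these gaps were 0.49 and 0.44. Fewer cells of a type and less RNA per cell cannot be told apart in such tissue samples.

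**Figure D1:**
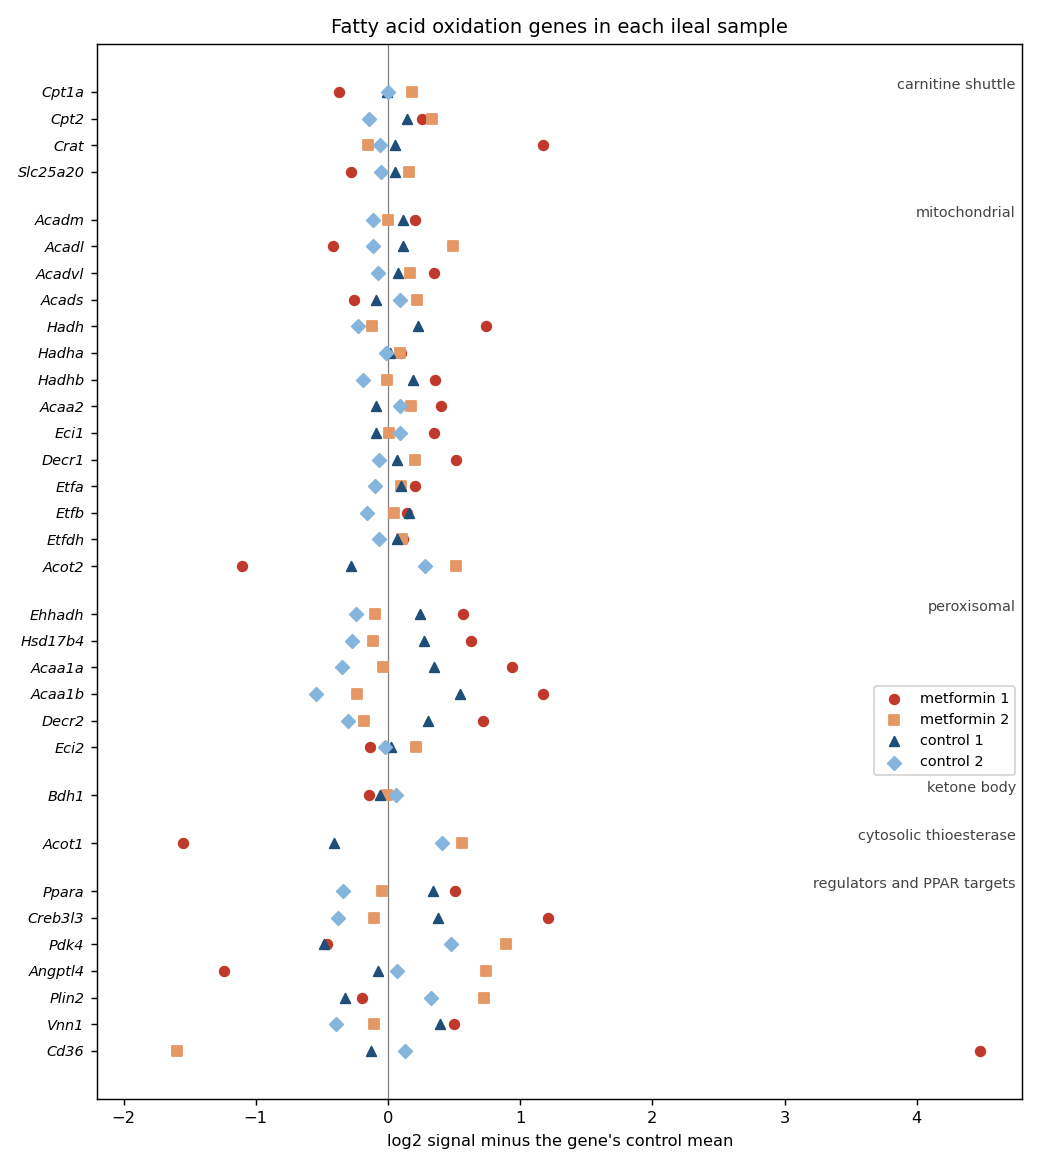
Each row is a member, grouped by step, and each symbol a sample, placed at its log2 signal after subtraction of the mean of both controls. Most mitochondrial genes lie close together (median range 0.46 log2 units), though Acot2 (1.62), Hadh (0.97) and Acadl (0.91) spread more. Metformin 1 is to the right for 5 of the 6 peroxisomal genes and to the left for Acot1, Acot2 and Angptl4, and Cd36 spreads over 6.07 log2 units.

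The carnitine shuttle, which carries long acyl chains into mitochondria, showed no common direction. Cpt1a encodes the outer-membrane transferase that limits the rate of entry and is inhibited by malonyl-CoA. It read 2.97 and 3.53 in metformin 1 and 2 and 3.34 and 3.35 in control 1 and 2, a difference of -0.09 (SE 0.33, 95% interval -0.98 to 0.79). The metformin samples thus lay on either side of the controls. The Cpt1a probe was spotted 10 times on each array, and those spots had an SD of 0.036 and 0.038 on the metformin arrays and of 0.043 and 0.028 on the control arrays. This spread is that of spots within an array and does not cover variation between samples.

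A second, dimmer Cpt1a probe gave a difference of -0.12. Cpt2, the inner-membrane transferase that hands the chain back to coenzyme A, read 4.84 and 4.92 with metformin and 4.73 and 4.44 in controls. Both metformin samples were above both controls, by a mean of 0.30 (SE 0.29), and the difference did not pass. Slc25a20, the carrier that exchanges acylcarnitine for carnitine, read 1.12 and 1.56 with metformin and 1.45 and 1.35 in controls (difference -0.06, SE 0.31). Crat, which loads short acetyl groups onto carnitine, was set apart by a single sample, with -2.90 in metformin 1, -4.22 in metformin 2, and -4.01 and -4.12 in the controls. Its difference of 0.51 (SE 0.52) became -0.15 without metformin 1.

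The mitochondrial spiral itself was the steadiest set of genes. Over its 14 members, including the flavoprotein and the thioesterase Acot2, 12 differences were above 0, the median was 0.13 and the range -0.30 to 0.36. The median was 0.06 without control 2 and 0.21 without either control 1 or metformin 2. With quantile normalization it was 0.033, and Acadm, Acadl, Etfb and Etfdh turned negative. The acyl-CoA dehydrogenases take chains of falling length. Acadvl, for very long chains, read 5.85 and 5.68 with metformin and 5.59 and 5.43 in controls, without overlap (difference 0.26, SE 0.29). Acadl, for long chains, read 1.88 and 2.80 with metformin and 2.42 and 2.19 in controls, so that the metformin samples bracketed the controls. Acadm, for medium chains, read 4.15 and 3.94 against 4.06 and 3.82 in controls, with overlap and a difference of 0.10 (SE 0.29). Acads, for short chains, read 0.14 and 0.61 with metformin and 0.30 and 0.49 in controls, and its difference was -0.02 (95% interval -0.88 to 0.84).

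The steps after the dehydrogenases had 4 positive differences of 4. Hadha, the alpha subunit of the trifunctional protein that hydrates and oxidises long chains, was the most uniform of the members, at 1.69 in both metformin samples and 1.61 and 1.58 in controls. Its groups did not overlap, yet the difference was only 0.10, or 1.07-fold. Hadhb, the beta subunit with thiolase activity, read 5.15 and 4.78 with metformin and 4.98 and 4.60 in controls, with overlap. Hadh, the dehydrogenase for shorter hydroxyacyl chains, read 5.76 and 4.90 with metformin and 5.25 and 4.79 in controls. Metformin 1 was highest for both genes and control 2 lowest.

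Acaa2, the mitochondrial thiolase, read 5.71 and 5.48 with metformin and 5.22 and 5.39 in controls, without overlap (difference 0.29, SE 0.29). Its probe also had 10 spots an array, whose SD was 0.066 and 0.061 on the metformin arrays and 0.051 and 0.049 on the control arrays. Metformin 2 lay only just above control 2. Decr1, the reductase needed for unsaturated chains, had the smallest unadjusted p of the members (0.29 by limma). It read 5.47 and 5.16 with metformin and 5.02 and 4.89 in controls, a difference of 0.36 (SE 0.30, 1.28-fold), and a dimmer probe gave 0.39. Eci1, the mitochondrial isomerase for the same chains, read 3.86 and 3.52 with metformin and 3.43 and 3.61 in controls, with overlap.

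The flavoprotein chain that drains electrons from the dehydrogenases varied little. Etfa, its alpha subunit, read 5.07 and 4.97 with metformin and 4.96 and 4.76 in controls (difference 0.15, SE 0.28). The second Etfa probe gave 0.18. Etfb, the beta subunit, read 5.62 and 5.53 with metformin and 5.64 and 5.33 in controls. Etfdh, which passes the electrons on to ubiquinone, read 4.14 and 4.13 with metformin and 4.09 and 3.96 in controls (difference 0.11, SE 0.28). Etfa and Etfdh did not overlap between groups and Etfb did. Of the 14 mitochondrial members 6 (42.9%) were free of overlap, all higher with metformin as were 12.5% of all genes: Acadvl, Hadha, Acaa2, Decr1, Etfa and Etfdh. Their differences were between 0.10 and 0.36, and all 7 epithelial markers measured differed in the same direction by 0.13 to 0.43 (median 0.33), whose part in the shift was not tested.

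**Figure D2:**
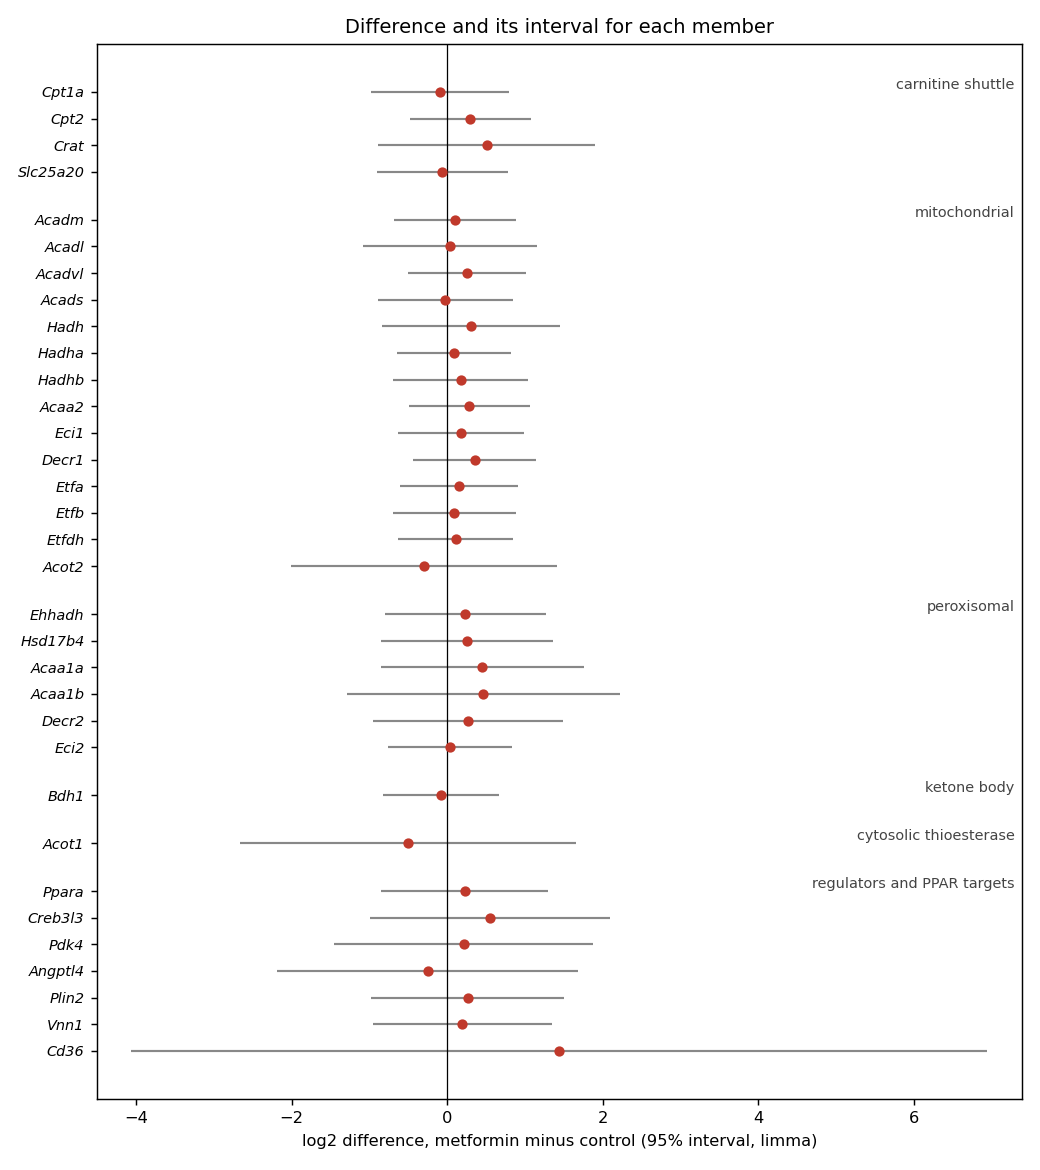
Points are the log2 difference, metformin minus control, for each member and lines its 95% interval from limma. All 33 intervals include 0, the narrowest belonging to genes such as Hadha (-0.64 to 0.83) and the widest to Cd36 (-4.07 to 6.95).

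Acot1 and Acot2, acyl-CoA thioesterases, which release free fatty acids from coenzyme A, were lowest in metformin 1. Acot1, the cytosolic enzyme, read -0.52 and 1.59 in metformin 1 and 2 and 0.62 and 1.44 in control 1 and 2. Acot2, its mitochondrial relative, read -2.79 and -1.17 with metformin and -1.96 and -1.40 in controls. Both genes had the same order, with metformin 2 highest, then control 2, control 1 and metformin 1. The differences were -0.50 (SE 0.81) and -0.30 (SE 0.64), and without metformin 1 they were 0.56 and 0.51. The genes are near-identical neighbours in the mouse genome, so each probe may also detect the other transcript.

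Of the 6 peroxisomal enzymes, 5 shared one order of the samples. Ehhadh, the bifunctional enzyme for straight chains, read 2.56 and 1.90 in metformin 1 and 2 and 2.24 and 1.76 in control 1 and 2. Hsd17b4, the bifunctional enzyme that also serves branched chains and bile acid side chains, read 5.56 and 4.81 with metformin and 5.20 and 4.65 in controls. Acaa1a, a peroxisomal thiolase, read 7.49 and 6.52 with metformin and 6.90 and 6.20 in controls. In each of these genes metformin 1 was highest, then control 1, metformin 2 and control 2.

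Acaa1b, the second mouse peroxisomal thiolase and close in sequence to Acaa1a, read 3.86 and 2.45 with metformin and 3.23 and 2.14 in controls. Decr2, the peroxisomal reductase for unsaturated chains, read 2.24 and 1.34 with metformin and 1.82 and 1.22 in controls. Both followed the same order, which 5 of the 6 peroxisomal members had and 19.7% of all genes had. General epithelial markers also had it in 5 of 7 cases. The exception was Eci2, an isomerase found in peroxisomes and mitochondria, at 3.95 and 4.30 with metformin and 4.11 and 4.06 in controls. All 6 peroxisomal differences were above 0 (median 0.26, range 0.04 to 0.47), though that of Eci2 was -0.10 with quantile normalization, and the largest, of Acaa1b, was 0.47 (SE 0.66), all with overlap. The median was 0.68 without metformin 2, and turned to -0.10 without metformin 1 and -0.0095 without control 2. It was 0.55 without control 1. The 2 thiolase probes can cross-hybridise, so their likeness is uncertain evidence of separate transcripts.

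Ketone body metabolism was represented by Bdh1, the mitochondrial dehydrogenase that converts acetoacetate to 3-hydroxybutyrate and back. It read 3.58 and 3.72 with metformin and 3.66 and 3.79 in controls, a spread of 0.21 over the 4 samples, and its difference was -0.08 (SE 0.28, 95% interval -0.83 to 0.67). Its 3 probes gave differences between -0.08 and -0.05. Acat1, Oxct1 and Bdh2, ketone body genes looked up in a wider pathway list, varied more.

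Acat1, the thiolase that joins acetyl-CoA units, read 2.70 and 1.62 with metformin and 1.64 and 1.68 in controls. Oxct1, the transferase that starts the use of ketone bodies as fuel, read 2.39 and 4.19 with metformin and 3.82 and 4.02 in controls. Metformin 1 was the highest sample for Acat1 and the lowest for Oxct1; the differences were 0.50 (SE 0.46) and -0.63 (SE 0.67). Bdh2, a cytosolic dehydrogenase, read 0.68 and -2.49 with metformin and -1.13 and -2.86 in controls, an order shared with the peroxisomal genes. Adjusted p was at least 0.9996 for each of these by limma.

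The regulators followed the peroxisomal order too. Ppara, the receptor itself, read 3.12 and 2.57 in metformin 1 and 2 and 2.95 and 2.28 in control 1 and 2 (difference 0.23, SE 0.40). Its 3 probes gave differences of 0.09 to 0.23, with metformin 1 above control 1 in 2 of them. Creb3l3, a membrane-bound transcription factor that acts with PPARalpha in liver, read 7.31 and 5.99 with metformin and 6.48 and 5.72 in controls. Metformin 1 was higher than every other sample, and the difference of 0.55 (SE 0.58, 1.47-fold) became -0.11 without it. Vnn1, a pantetheinase of the enterocyte surface that PPARalpha induces in liver, read 4.84 and 4.24 with metformin and 4.74 and 3.95 in controls, in the same order.

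The other lipid handling targets did not share that order. Angptl4, a secreted inhibitor of lipoprotein lipase, read 3.03 and 5.02 with metformin and 4.20 and 4.34 in controls. Its metformin samples lay on either side of the controls, and the difference was -1.24 without metformin 2 and 0.74 without metformin 1. Pdk4, the kinase that shuts off pyruvate dehydrogenase when fat is burned, was separated by sample number and not by treatment, at 1.23 and 2.59 in metformin 1 and 2 and 1.22 and 2.18 in control 1 and 2. Plin2, a coat protein of lipid droplets, was likewise higher in the samples numbered 2, at 3.42 and 4.34 with metformin and 3.29 and 3.94 in controls. Their differences were -0.25 (SE 0.72), 0.21 (SE 0.62) and 0.26 (SE 0.47). Over the 7 regulators and targets the median difference was 0.23, against -0.048 without metformin 1 and 0.56 and 0.50 without control 1 and metformin 2.

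Cd36, the fatty acid translocase of enterocytes, adipocytes, endothelium and macrophages, varied most. It read 1.74 in metformin 1 and -4.33 in metformin 2, against -2.86 and -2.61 in the controls. The metformin samples were the highest and the lowest of the 4, and the mean difference of 1.44 had an SE of 2.06 and an adjusted p of 0.9996 or more by limma. It was 4.48 without metformin 2 (adjusted p = 0.21 by limma) and -1.60 without metformin 1. Of 8 measured adipocyte markers 7 lay lower in both metformin samples than in both controls, where 8.46% of all genes did so. Those 7 had summed signals of 1.58 and 0.47 in metformin 1 and 2 and 4.85 and 10.01 in control 1 and 2. The eighth, Cidec, is also made by enterocytes and was highest in metformin 1. With it the sums were 23.7 and 7.11 in metformin 1 and 2 and 14.7 and 16.8 in control 1 and 2. Plin1 cleared background in 1 of the metformin samples only, and Lep in too few samples to be kept. Their part in the values of Cd36, Plin2, Pdk4 and Angptl4, which fat also expresses, was not tested.

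**Figure D3:**
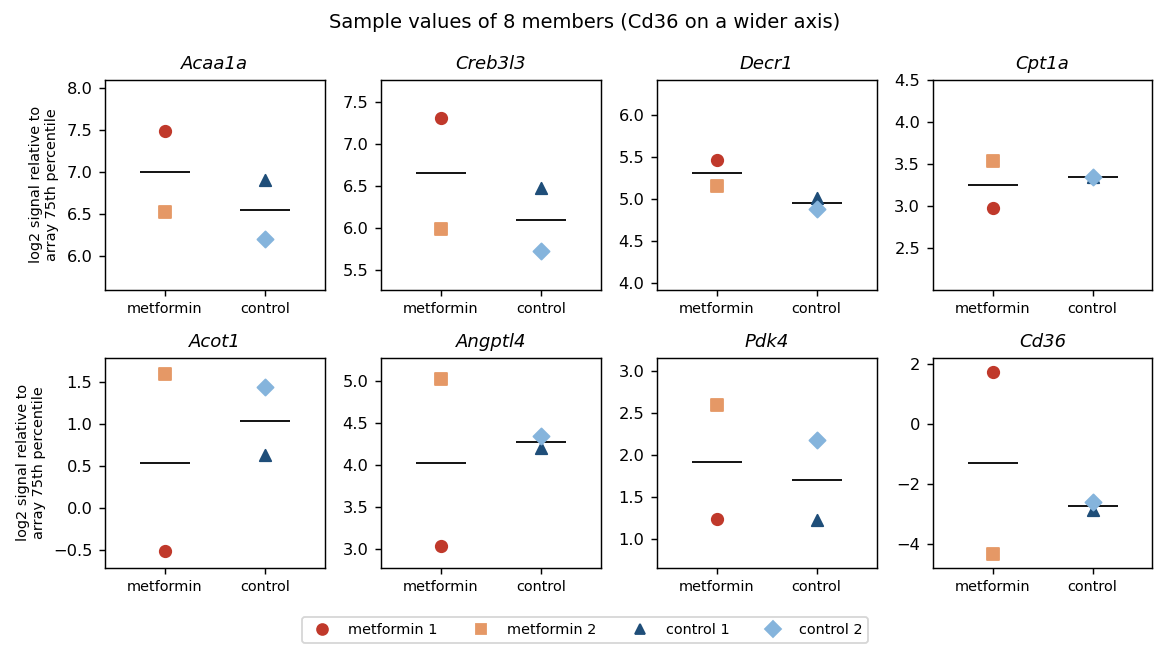
Log2 signal in each sample, relative to the 75th percentile, with metformin on the left and control on the right and a line at each group's mean of 2 samples; Cd36 has a wider axis. Acaa1a and Creb3l3 are highest in metformin 1, Acot1 and Angptl4 lowest in it, Pdk4 is split by sample number, and Decr1 has both metformin samples above both controls.

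Sorting the members by their highest and lowest samples gave contrasting sets. Metformin 1 was the highest sample for 20 of the 33 members (60.6%, against 38.5% of all genes) and the lowest for 9 (27.3%, against 28.5%). The order of metformin 1, control 1, metformin 2 and control 2 from high to low was shared by 11 members, or 33.3%, namely Acadm, Hadh, Hadhb, Ehhadh, Hsd17b4, Acaa1a, Acaa1b, Decr2, Ppara, Creb3l3 and Vnn1. Of all genes 19.7% had this order, and of the 7 epithelial markers 5 (71.4%), so it was not particular to the pathway. In 8 members, or 24.2%, metformin 1 was lowest and metformin 2 highest, as in 9.43% of all genes: Cpt1a, Slc25a20, Acadl, Acads, Acot1, Acot2, Eci2 and Angptl4. These are descriptions of 4 samples and carry no test. The proximal markers had the summed order metformin 1, control 1, control 2 and metformin 2, and the ileal markers were lowest in metformin 1. The summed epithelial markers were highest in it (848.5 and 682.9 times the array percentile in metformin 1 and 2, 683.1 and 540.1 in control 1 and 2). Taken singly, 5 of the 7 epithelial markers were highest in metformin 1 and 2, Cdh1 and Krt8, in metformin 2. Whether gut position set the order of the members was not tested.

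Markers of smooth muscle, endothelium and macrophages differed in which samples were high. Smooth muscle markers were high in control 1 alone, with summed signals of 4.18 and 5.43 in metformin 1 and 2 and 128 and 6.42 in control 1 and 2. Of these 6 markers, 5 (83.3%, against 8.46% of all genes) lay lower in both metformin samples than in both controls, and Myh11 overlapped. Without control 1 the median difference over the 33 members was 0.25, against 0.20 with all samples. By step it was 0.22 against 0.12 for the carnitine shuttle and 0.21 against 0.13 for mitochondrial members. For peroxisomal members it was 0.55 against 0.26, and for regulators and targets 0.56 against 0.23. The part of smooth muscle in these values was not tested. Endothelial markers summed to 5.08 and 3.97 in metformin 1 and 2 and 5.46 and 3.62 in control 1 and 2, most of it from Kdr. The other 5 summed to 0.32 and 0.48 in metformin 1 and 2 and 0.78 and 0.72 in control 1 and 2. Over all 6 the median difference was -1.11. Cdh5, Vwf and Cldn5, 3 of the 6 (50%, against 8.46% of all genes), were lower with metformin without overlap. They had differences of -1.71, -1.07 and -1.71 and unadjusted p of 0.0082, 0.026 and 0.043 by limma, and none passed after adjustment. The rest overlapped, with differences of 0.07 for Pecam1, 0.15 for Kdr and -1.15 (SE 1.09) for Tie1, so the list had no common direction. The part of endothelium in the values of Cd36 was not tested. Macrophage markers, of which 4 of 5 were measured, summed to 6.50 and 4.55 in metformin 1 and 2 and 3.58 and 4.39 in control 1 and 2, most of it from Csf1r. Adgre1 and Mrc1, 2 of the 4 (50%, against 12.5% of all genes), were higher with metformin without overlap. Csf1r and Cd14 overlapped.

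**Figure D4:**
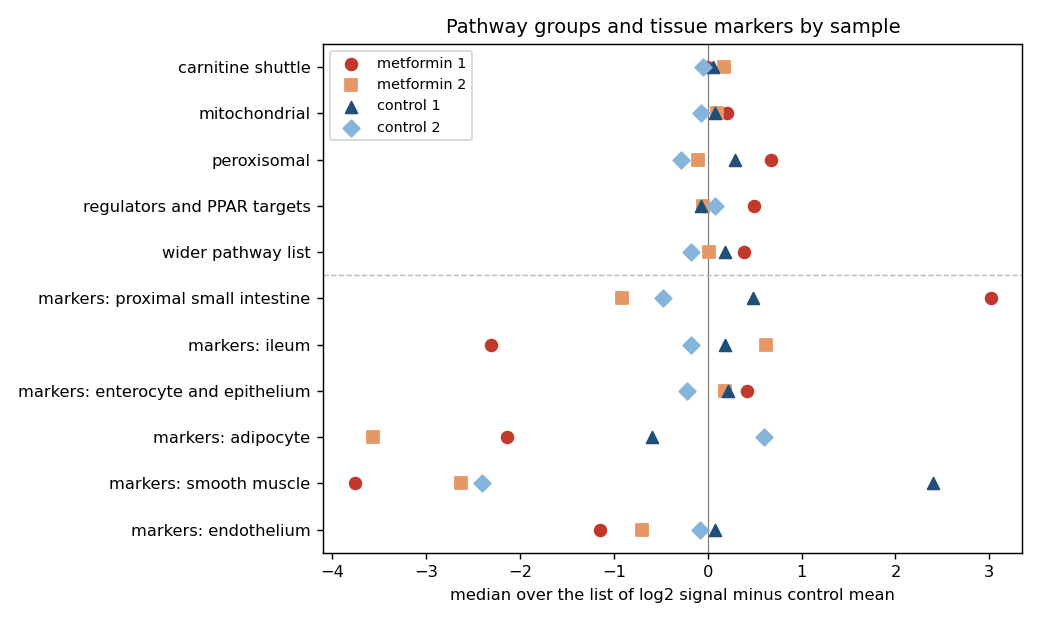
For each list the symbols give, per sample, the median over its genes of log2 signal after subtraction of the control mean; pathway groups lie above the dashed line and tissue markers below it. Peroxisomal genes are spread from 0.68 in metformin 1 to -0.29 in control 2, mitochondrial genes from 0.21 to -0.07, and proximal markers reach 3.01 in metformin 1.

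Promoters of 3 members with contrasting sample patterns are shown because PPARalpha binds paired copies of the hexamer AGGTCA. Each runs from 250 bases before to 50 after the RefSeq gene start (GRCm38.p6), 5′ to 3′ along the gene, and the hexamer is in capitals, as TGACCT where it lies on the opposite strand. Cpt1a (chr19:3323051-3323350, plus strand) was lowest in metformin 1, Creb3l3 (chr10:81092542-81092841, minus strand) highest in it, and Cd36 (chr5:17835847-17836146, minus strand) the most variable.
Cpt1a: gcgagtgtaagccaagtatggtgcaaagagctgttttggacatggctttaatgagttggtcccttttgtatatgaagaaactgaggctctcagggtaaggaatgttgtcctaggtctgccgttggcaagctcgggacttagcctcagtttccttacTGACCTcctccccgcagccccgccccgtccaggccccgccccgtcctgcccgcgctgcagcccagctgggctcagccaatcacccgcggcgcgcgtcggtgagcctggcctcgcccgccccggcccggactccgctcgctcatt
Creb3l3: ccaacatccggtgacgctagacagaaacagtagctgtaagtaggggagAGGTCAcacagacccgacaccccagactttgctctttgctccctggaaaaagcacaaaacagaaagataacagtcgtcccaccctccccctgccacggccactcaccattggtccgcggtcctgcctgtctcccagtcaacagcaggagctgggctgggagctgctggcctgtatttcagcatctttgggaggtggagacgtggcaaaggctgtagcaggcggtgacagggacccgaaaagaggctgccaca
Cd36: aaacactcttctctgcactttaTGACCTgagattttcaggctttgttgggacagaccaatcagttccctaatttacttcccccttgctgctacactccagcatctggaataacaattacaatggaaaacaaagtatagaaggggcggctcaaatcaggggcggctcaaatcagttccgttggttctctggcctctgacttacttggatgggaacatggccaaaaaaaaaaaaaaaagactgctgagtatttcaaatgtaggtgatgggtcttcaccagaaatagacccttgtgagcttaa
The hexamer begins 94 bases before the start in Cpt1a, 202 in Creb3l3 and 228 in Cd36. Of 29 promoters listed for 27 members, 6 (20.7%) held the hexamer on either strand, the others being those of Acadm, Acadvl and Plin2, against 16.3% of all 32851 promoters of that length. The paired form known as DR1, a direct repeat of AGGNCA with 1 base between the copies, was in 0 of the 29 and in 0.381% of all promoters. These counts describe letters in a short window and say nothing of binding.

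Other genes of the pathway, 56 in a list that adds acyl-CoA synthetases, further peroxisomal enzymes, ketone body enzymes, coactivators and PPAR targets, gave a like picture. Of these 51 were measured and 0 were called by limma with adjustment over all genes, with 1 at an unadjusted p under 0.05, as had 1.6% of all genes. The difference was above 0 for 38 (74.5%, against 57.9% of all genes) and below 0 for 13, with a median of 0.20, which was 0.012 without metformin 1 and -0.060 without control 2, and 0.40 and 0.39 without control 1 and metformin 2. In 9 genes (17.6%) both metformin samples lay above both controls and in 2 (3.92%) below, against 12.5% and 8.46% of all genes.

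The largest differences among these were those of Cyp4a31, Acsl5 and Rxra. Cyp4a31, of a family of fatty acid omega-hydroxylases whose members are alike in sequence, read -2.17 and -3.46 with metformin and -4.11 and -4.13 in controls, a difference of 1.31 (SE 0.51, unadjusted p = 0.057 by limma). Its probe may detect other Cyp4a genes. Acsl5, an acyl-CoA synthetase abundant in enterocytes, read 5.71 and 4.44 with metformin and 4.43 and 4.42 in controls, so metformin 2 was barely above the controls. Rxra, the partner receptor of PPARalpha, read -1.51 and -1.86 with metformin and -1.91 and -2.15 in controls. Of the lower genes, G0s2, an inhibitor of the lipase that opens lipid droplets and abundant in fat, read -5.72 and -5.55 with metformin and -4.68 and -4.85 in controls. Its difference of -0.87 (SE 0.29, unadjusted p = 0.034 by limma) had the adipocyte markers moving the same way, whose part was not tested. Nudt19, a peroxisomal hydrolase of coenzyme A esters, read 2.99 and 2.97 with metformin and 3.21 and 3.04 in controls.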

How the data were processed

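Spots on 4 Agilent arrays were quantified with Agilent Feature Extraction 10.7.3.1, per the file headers, and the deposited intensity (processed signal) is linear, background-subtracted and detrended within each array. All 4 arrays lay on 1 slide, metformin and control at different positions, so position and treatment cannot be told apart. The authors' deposited table, described as normalized, held an intensity equal to the raw median signal for all 39030 probes with 1 spot, and served as an alternative.

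Spots marked as non-uniform or population outliers were left out, log2 values were averaged per probe and the array's 75th percentile (864 and 1067 for metformin 1 and 2, 915 and 1453 for control 1 and 2) was subtracted. Between 65.1% and 69.1% of probes were well above background and 0 spots were saturated. RefSeq accessions gave symbols (table of GRCm38.p6). Probes well above background on both arrays of a group were kept (26441 of 39429) and the brightest of a gene was tested with limma 3.58.1 in R 4.3.3, two-sided, adjusted by Benjamini-Hochberg at 0.05. The fit was run on simulated data to check its estimates of known fold changes. Noise there was set to a fraction of the sample spread, with a floor. The run therefore cannot show which changes could be called in these samples. All members were named, and of the wider list 3 ketone body genes and up to 3 in each direction without overlap; other genes that the rule named are not reported here. The members, the lists and the marker genes were chosen with earlier results of these data known, and the promoters shown after their values were seen. The alternative background correction, normexp, used the raw median signals, as the files hold no mean signal. The main values came from the processed signal.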

Additional observations from a re-analysis of the deposited data

How the results depend on the processing

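No setting called a member, a gene of the wider list or any gene (limma, adjusted p of members at least 0.21). Of the 33 members, 28 kept their direction under every setting that used all 4 samples, and 8 also under every omission of a sample. The exceptions with all samples came from quantile normalization, at which Acadm was -0.038, Acadl -0.060, Etfb -0.0067, Etfdh -0.031 and Eci2 -0.10. There the medians were 0.033 for mitochondrial, 0.17 for peroxisomal, 0.13 for regulator and target and 0.091 for wider-list genes. Without overlap, 2 members lay higher and 1 lower, with no share of all genes computed at that setting. Over all genes the median difference was 0.06 with the main scaling, and the part of that shift in these values was not tested. With normexp, the deposited table, no filter, a stricter filter, the mean of probes, or trend and robust options, every median moved by less than the spread between replicates and every count stayed within 1.5 times.

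Leaving out a sample in turn moved more. The median over the 33 members ranged from 0.012 to 0.26, that of the carnitine shuttle from -0.012 to 0.22, of the regulators and targets from -0.048 to 0.56 and of the peroxisomal genes from -0.10 to 0.68. Members without overlap numbered 10 to 21 higher and 1 to 9 lower, fewer samples making non-overlap easier, and 0 to 7 at least 2-fold changed. The shares of all genes with a sample left out were not computed. Whether these counts exceed those of other genes therefore cannot be told, and the shares given for all 4 samples do not apply. The members and wider-list genes that changed sign had these ranges of differences: Cpt1a -0.37 to 0.18, Crat -0.15 to 1.17, Slc25a20 -0.28 to 0.16, Acadm -0.011 to 0.22, Acadl -0.42 to 0.49, Acads -0.26 to 0.22, Hadh -0.12 to 0.74, Hadhb -0.012 to 0.36, Etfb -0.062 to 0.25, Acot2 -1.11 to 0.51. The next were Acot1 -1.55 to 0.56, Ehhadh -0.095 to 0.57, Hsd17b4 -0.11 to 0.63, Acaa1a -0.035 to 0.94, Acaa1b -0.23 to 1.17, Decr2 -0.18 to 0.72, Eci2 -0.13 to 0.21, Ppara -0.11 to 0.56, Creb3l3 -0.11 to 1.21, Pdk4 -0.46 to 0.89. The last were Angptl4 -1.24 to 0.74, Plin2 -0.19 to 0.72, Vnn1 -0.20 to 0.59, Cd36 -1.60 to 4.48, Acat1 -0.046 to 1.04, Bdh2 -0.50 to 2.68, Oxct1 -1.53 to 0.27. The cause was not tested.

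The replicate numbers are shared between groups by name only. Deviations of same-numbered samples correlated at 0.56 across genes, and with the replicate number as a block 0 members were called, the median over the members stayed at 0.20 and the smallest unadjusted p of a member was 0.076 (Acaa1b, limma, adjusted p = 0.63). With 2 arrays a group, the number of arrays limits the precision.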
